A study of Mus musculus with 12 samples.

Results

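The abundant small structured RNAs of the cell were followed through an ORF1p immunoprecipitation from mouse testis, as 8 names of a repeat table: 7SL (listed as 7SLRNA), 7SK, the spliceosomal RNAs U1, U2, U4, U5 and U6, and the small nucleolar RNA U3. They were picked by name from 1528 repeat names, and all 8 passed the filter of a mean normalized count of at least 10 that left 1180 names for testing. All 12 libraries came from testes of Mael-/- C57BL/6 mice of about 3 months of age, so that every group, controls included, lacks Maelstrom, a protein needed to silence L1 retrotransposons in male germ cells, and no library of a Mael-proficient animal is part of the comparison. TOTAL is the clarified testis extract in EDTA, which takes ribosomes apart, and INPUT is a pool of sucrose gradient fractions of that extract in which the L1 RNPs sediment. IP is RNA pulled from INPUT with an antibody against ORF1p, the RNA-binding protein that L1 encodes, and BO (beads only) is RNA held from INPUT by the same beads without antibody. Each group has 3 libraries, numbered by the labels, which do not say whether the numbers stand for separate animals, so the p-values measure the spread between these libraries.

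7SL is the RNA scaffold of the signal recognition particle (SRP), which brings ribosomes that make secreted proteins to the endoplasmic reticulum, and it is also the ancestor of the mouse B1 SINEs, which L1 proteins mobilise. 7SK holds the elongation kinase P-TEFb inactive together with HEXIM, LARP7 and MEPCE proteins. U1 and U2 recognise the 5′ splice site and the branch point of introns, U4, U5 and U6 complete the spliceosome as a tri-snRNP, and U3 directs early processing of ribosomal RNA in the nucleolus. Most of these RNAs act in the nucleus, whereas SRP is mainly cytoplasmic.

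The reference forms of 7SK, U1, U2 and U3 are printed here from the GENCODE M21 transcripts of GRCm38 (mm10), as DNA letters from 5′ to 3′, because levels below are given per length of such forms and because the elements in capitals carry each RNA's known function. For 7SK, the first 300 of 331 nt of Rn7sk (chr9:78175303-78175633, - strand) are shown, with capitals on GATC, the tetramer of the HEXIM-binding hairpin, found 3 times.
7SK, Rn7sk: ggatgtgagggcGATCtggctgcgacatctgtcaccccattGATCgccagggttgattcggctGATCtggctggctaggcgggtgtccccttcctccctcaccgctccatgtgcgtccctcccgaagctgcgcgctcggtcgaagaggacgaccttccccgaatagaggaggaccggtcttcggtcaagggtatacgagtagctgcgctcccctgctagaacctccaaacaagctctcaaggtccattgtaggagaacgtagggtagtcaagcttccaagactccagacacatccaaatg

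For U1, U2 and U3, capitals mark the bases that pair with the intron or with partner RNAs and the protein-binding sites found by letter search. In U1 (Rnu1b1, chr3:96359953-96360117, - strand, 165 nt) they are ACTTACCTG, which pairs with the 5′ splice site, and the Sm ring site AATTTGTGG. In U2 (Rnu2-10, chr11:101658238-101658428, + strand, 191 nt) they are GTAGTA, which pairs with the branch point, and the Sm site ATTTTTGG. In U3 (Rnu3b1, chr11:87443237-87443451, + strand, 215 nt) they are the box C letters TGATGA and GTCTGAG, which holds box D.
U1, Rnu1b1: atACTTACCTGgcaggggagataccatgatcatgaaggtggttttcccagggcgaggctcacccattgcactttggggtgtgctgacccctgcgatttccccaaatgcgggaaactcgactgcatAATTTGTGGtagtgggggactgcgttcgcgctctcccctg
U2, Rnu2-10: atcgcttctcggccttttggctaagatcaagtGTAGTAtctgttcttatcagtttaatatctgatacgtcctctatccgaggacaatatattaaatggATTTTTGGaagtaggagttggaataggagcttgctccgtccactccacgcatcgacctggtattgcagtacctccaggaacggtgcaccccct
U3, Rnu3b1: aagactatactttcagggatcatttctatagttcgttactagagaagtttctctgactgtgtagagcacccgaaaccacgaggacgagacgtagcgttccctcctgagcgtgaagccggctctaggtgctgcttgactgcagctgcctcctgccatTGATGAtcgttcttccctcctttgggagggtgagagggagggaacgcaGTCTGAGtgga

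These letters were searched on the transcript strand only. Of 11793 annotated transcripts between 100 and 350 nt, 0.509% held the U1 and 1.93% the U2 pairing element, 11.1% TGATGA and 2.14% GTCTGAG. The Sm sites of U1 and U2 were held by 0.678% and 0.543% of them, and GATC by 50.0%. These genes are annotated as noncoding RNA genes in the classes misc_RNA (7SK), snRNA (U1, U2) and snoRNA (U3).

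Reads recovered from the table numbered 6021800 to 7282171 per TOTAL library, 3045169 to 3880641 in INPUT, 1712212 to 3512997 in BO and 1384904 to 2003193 in IP. Libraries of IP were prepared from less RNA than those of TOTAL and INPUT, and those of BO from whatever RNA an equal volume held. Several libraries stood apart. Replicate 1 of TOTAL and of INPUT held more U2, U3, U4 and U5 than the others of its group, BO replicate 2 held little 7SL, and in BO replicate 3 ribosomal RNA names took 54.3% of reads against 1.96% to 16.3% in the other 11 libraries. The paper's libraries were depleted of ribosomal RNA, so all values of ribosomal RNA names here are of what that step left. Testis marker genes were abundant in TOTAL by the authors' group means (Sycp3 5739, Ddx4 2611, Dazl 13894), and Mael was listed at 0.650, which checks the genotype.

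In the TOTAL extract, the 8 small RNAs made up 57.6% ± 6.54 (SD, n = 3) of the reads on repeat names, and 23.3% ± 1.32 in INPUT, 0.505% ± 0.259 in BO and 2.38% ± 0.386 in IP. 7SL alone took 44.9% ± 6.73 (SD, n = 3) of the reads in TOTAL, 18.0% ± 0.937 in INPUT, 0.0974% ± 0.113 in BO and 1.46% ± 0.258 in IP. The level in TOTAL is that of a bulk extract, where fewer cells of a type and less RNA per cell cannot be told apart, and the other groups are fractions of such an extract. For 7SK the share was 11.01% ± 1.04, 2.85% ± 0.112, 0.0923% ± 0.0454 and 0.574% ± 0.0961 in the same order. U1 to U6 and U3 together took 1.73% ± 1.17 in TOTAL, 2.37% ± 2.10 in INPUT, 0.316% ± 0.152 in BO and 0.345% ± 0.172 in IP. Single libraries decide some of these means, since without replicate 1 the U RNA share was 1.05% in TOTAL and 1.16% in INPUT, and without BO replicate 1 the 7SL share in BO was 0.0341%. Both 7SL and 7SK thus had separate ranges in all 4 groups, and the U RNAs overlapped between TOTAL and INPUT and between BO and IP.

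**Figure D1:**
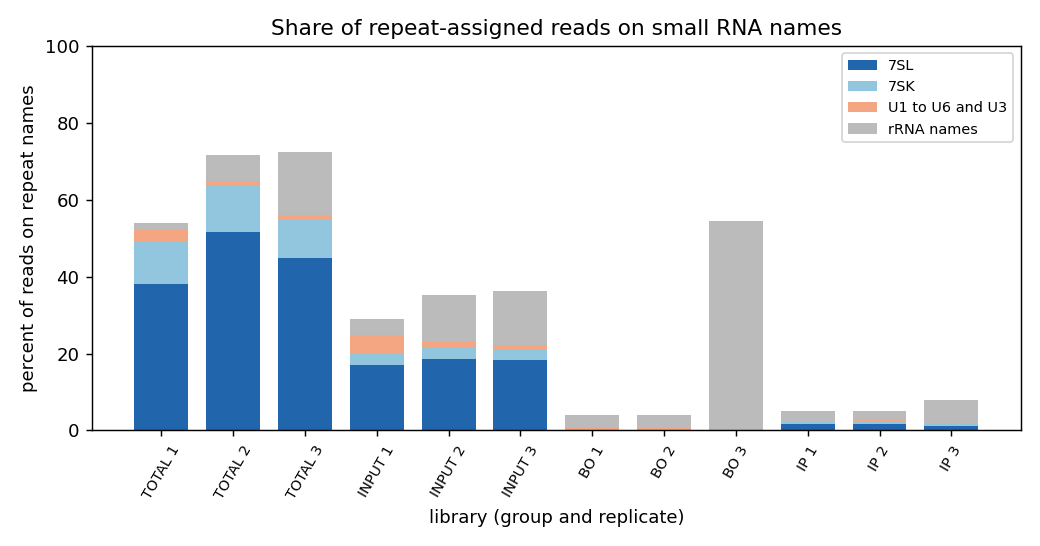
Stacked bars give the percent of each library's reads on repeat names that fell on 7SL, on 7SK, on U1 to U6 and U3 together, and on ribosomal RNA names, for 3 libraries of each group. The 8 small RNAs take 52.0% to 64.8% in TOTAL, 22.1% to 24.7% in INPUT, 0.246% to 0.765% in BO and 2.05% to 2.81% in IP, and BO replicate 3 is mostly ribosomal RNA.

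The summed share was 1.87 percentage points higher in IP than in BO and 20.9 points lower in IP than in INPUT (-20.9). Each of the 5 group comparisons gave an exact two-sided permutation p of 0.1, the smallest that 3 libraries against 3 allow. Outside ribosomal RNA names the shares were 63.2% ± 8.86 in TOTAL, 25.9% ± 0.228 in INPUT, 0.618% ± 0.150 in BO and 2.46% ± 0.360 in IP. Wilson 95% intervals of single shares were at most 0.0422 percentage points wide on either side and cover counting error only, since reads without molecular identifiers are not independent molecules.

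Levels between RNAs were compared per length, as the authors' normalized count per 100 nt of the annotated reference transcript, leaving out U4. They are levels of reads and not of molecules, since how evenly the library preparation recovered RNAs of different length was not tested. For U6, with 319 listed loci, the reads that came from U6 snRNA were not told apart either. In TOTAL 7SL stood at 897626 ± 291540 (SD, n = 3) and 7SK at 196794 ± 48160, with ranges that did not overlap. U2 (19690 ± 11330) and U1 (18585 ± 674) did not differ beyond their spread, U3 (7470 ± 4547) overlapped with U2 and not with U1, and U5 (1722 ± 2465) overlapped with U6 (490 ± 187). These overlaps rest on TOTAL replicate 1, without which the means were 18413 for U1, 13171 for U2, 4845 for U3, 383 for U6 and 299 for U5, in that order and with separate ranges. In BO the order was another one, with U2 first at 3121 ± 482, above 7SL (864 ± 785), 7SK (721 ± 160) and U1 (476 ± 294), which overlapped with each other. Without BO replicate 1 the BO level of 7SL was 478, below the 629 of 7SK, again with overlap. In IP 7SL was again first at 9666 ± 1818, before 7SK (3439 ± 555), U2 (2179 ± 1186) and U1 (703 ± 346), where the ranges of 7SK and U2 overlapped, as did those of U2 and U1. U3 at 383 ± 133 overlapped with U1 and with U6 (282 ± 24.4), and U5 was last at 58.8 ± 26.9.

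**Figure D2:**
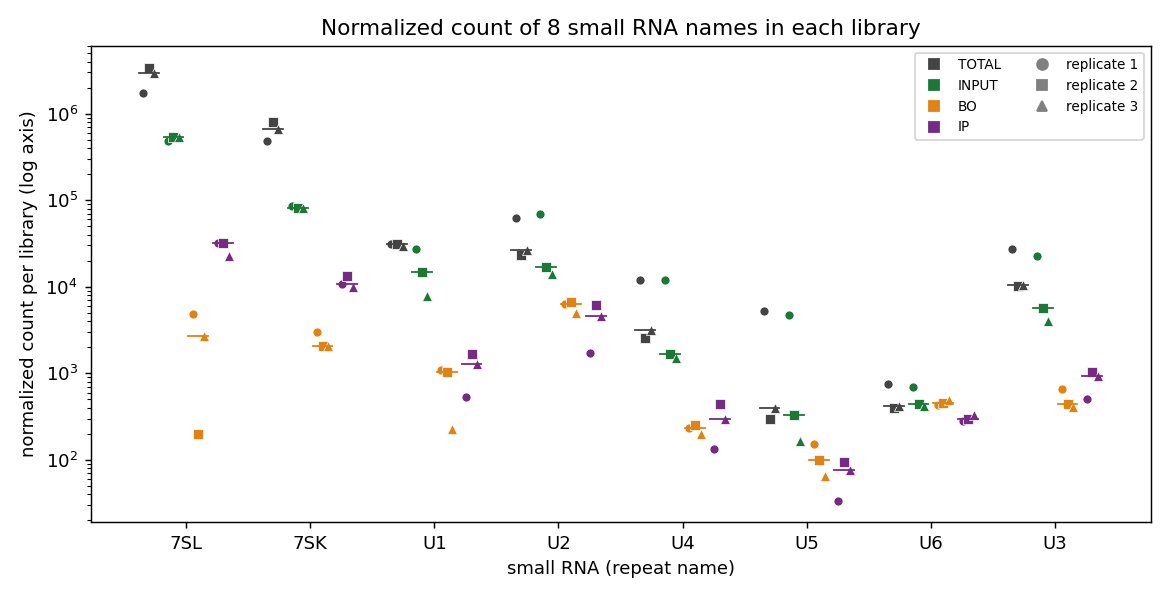
The normalized count of each small RNA is drawn for all 12 libraries on a log axis, with colour for the group, shape for the replicate number and a line at the group median. 7SL runs from 3410729 in a TOTAL library down to 196 in BO replicate 2, whereas U6 stays between 279 and 755 in all libraries.

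The comparison of IP with BO asks which RNAs stood higher, relative to the other repeat names, with the antibody than on bare beads. Every library was scaled to the same upper quartile, so amounts of RNA brought down were not compared. A name that was not called may still differ in amount between IP and BO. 7SL and 7SK were higher in IP, and the 6 U RNAs were not called in either direction. In IP, 7SL had 32328, 31962 and 22706 normalized counts, and in BO 4905, 196 and 2672, so the lowest IP library was above the highest BO library. Its log2 fold change was 4.38 (SE 0.85, 95% interval 2.53 to 6.24, adjusted p = 0.00176 over 1180 names with limma), and none of the other tested names had a larger one. 7SK had 10859, 13423 and 9865 in IP against 3000, 2088 and 2075 in BO, again without overlap. Its log2 fold change was 2.26 (SE 0.19, interval 1.86 to 2.67, adjusted p = 3.68e-06), the 9th largest. Of all tested names, 5.08% passed both thresholds in the higher direction and 3.81% in the lower one, beside 2 of 8 and 0 of 8 here. In the lower direction 1 of the 8 (U6) had an unadjusted p under 0.05 with limma, and edgeR and DESeq2 called 0 as well. The size for 7SL depended on the BO libraries, since it was 2.98 without BO replicate 2, which held 151 reads of 7SL, and 5.30 without BO replicate 1, both still called. The count models edgeR and DESeq2, run on recovered reads, gave 3.62 and 3.61 and called it too.

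None of the U RNAs was separated as higher in IP than in BO. U1 had 534, 1652 and 1296 in IP and 1088, 1043 and 226 in BO, a log2 fold change of 0.72 (interval -0.59 to 2.02, adjusted p = 0.394). U2 had 1699, 6156 and 4629 in IP and 6289, 6675 and 4921 in BO, a log2 fold change of -0.70 (interval -2.01 to 0.61, adjusted p = 0.409), with 2 of 3 IP libraries below every BO library. For U3, with 502, 1047 and 920 in IP against 653, 444 and 412 in BO, the value was 0.67 (interval -0.56 to 1.90, adjusted p = 0.396). IP replicate 1 was the lowest IP library for all of these. Without replicate 1 of every group, added as an alternative after the data were seen, U3 was called higher at 1.20 (adjusted p = 0.000343).

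The names of the tri-snRNP RNAs were at low levels in both bead samples, where the part of U6 reads that came from U6 snRNA was not tested. U4 had 132, 440 and 296 in IP and 234, 251 and 197 in BO, a log2 fold change of 0.19 (interval -1.47 to 1.85, adjusted p = 0.881). U5 had 33.8, 94.7 and 76.1 in IP and 151, 98.9 and 65.8 in BO, a log2 fold change of -0.66 (interval -3.27 to 1.95, adjusted p = 0.706), from 23 to 78 reads in IP and 41 to 242 in BO. U6 had 279, 296 and 331 in IP and 432, 454 and 494 in BO, which do not overlap. Its log2 fold change of -0.61 (SE 0.23, interval -1.11 to -0.10) missed both thresholds (adjusted p = 0.0622). The wide intervals of U4 and U5 leave room for changes past 2-fold in both directions.

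**Figure D3:**
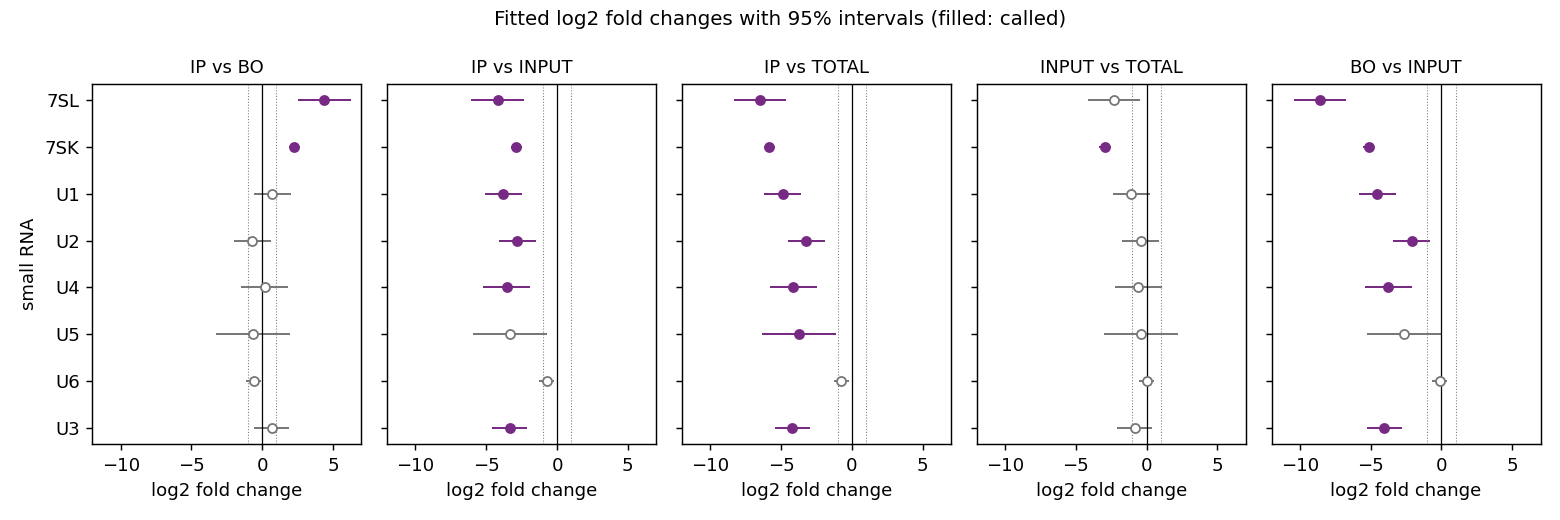
Each panel gives the log2 fold change of the 8 small RNAs in 1 comparison (points) with its 95% interval (bars) from the limma fit of 3 libraries per group, filled where called, with dotted lines at -1 and 1. Only 7SL and 7SK lie past 1 for IP vs BO, at 4.38 and 2.26, and both lie far below 0 in IP vs INPUT, IP vs TOTAL and BO vs INPUT.

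Against INPUT, the material that was offered to the beads, the small RNAs were lower in IP. 6 of the 8 were called lower and 0 higher, with log2 fold changes below 0 for all 8 in limma, edgeR and DESeq2 (which gave U5 a fold change but no p), where 2.88% of all tested names were called lower and 3.22% higher. 7SL had 485266, 541231 and 540793 in INPUT, and IP held 5.55% of that mean level (log2 fold change -4.19, SE 0.85, adjusted p = 0.00342). 7SK had 84798, 82406 and 80364 in INPUT, and IP held 13.8% of it (-2.87, SE 0.19, adjusted p = 9.20e-07). The INPUT libraries were close together for both and far above all IP libraries.

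U1 fell from 26989, 14686 and 7897 in INPUT to the IP levels given above, by 3.80 on the log2 scale (SE 0.60, adjusted p = 0.000732). U4 had 11837, 1653 and 1487 in INPUT and fell by 3.57 (SE 0.76, adjusted p = 0.00444), U3 had 22558, 5721 and 4014 and fell by 3.35 (SE 0.56, adjusted p = 0.00115), and U2 had 70018, 16735 and 14122 and fell by 2.81 (SE 0.60, adjusted p = 0.00466). INPUT replicate 1 was the highest library for each of these 4, but the lowest INPUT library was above every IP library. Without INPUT replicate 1 the log2 fold changes were -2.60 for U4, -2.61 for U3 and -2.08 for U2, all still called. Without replicate 1 of every group they were -2.12 for U4, -2.29 for U3, -1.53 for U2 and -2.88 for U1, also still called. U5 had 4765, 332 and 163 in INPUT, and its log2 fold change of -3.33 (SE 1.20, adjusted p = 0.0565) was not called. Without INPUT replicate 1 it was -1.88 and not called (adjusted p = 0.201), and without replicate 1 of every group it was called at -1.45 (adjusted p = 0.0134). U6 had 688, 439 and 418 in INPUT, and its value of -0.73 (SE 0.23, adjusted p = 0.0335) was under the fold threshold.

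Relative to the other repeat names, 7SL and 7SK were lower still on bare beads. The percentages here divide normalized levels, and are not the part of the RNA in INPUT that the beads retained. BO held 0.496% of the INPUT level of 7SL and 2.89% of that of 7SK, against 4.67% for U3, 4.75% for U1, 4.56% for U4, 6.00% for U5, 17.7% for U2 and 89.3% for U6. In IP these were 7.64% for U3, 7.02% for U1, 5.80% for U4, 3.89% for U5, 12.4% for U2 and 58.6% for U6. The shares of several U RNAs rest on INPUT replicate 1. Without it, a choice made after the data were seen, BO held 10.3% for U3, 6.96% for U1, 14.5% for U4, 42.4% for U5, 38.6% for U2 and 107% for U6, and IP 16.9%, 10.3%, 18.4%, 27.5%, 27.0% and 70.5% in that order, beside 0.479% in BO and 5.36% in IP for 7SL and 2.93% and 13.99% for 7SK. The BO share of 7SL rests on BO replicate 1, without which it was 0.274%. 6 of 8 names were called lower in BO than in INPUT and 0 higher, again with all 8 below 0 by the 3 tools, where 2.8% of all tested names were called lower and 2.63% higher. 7SL had the lowest log2 fold change of all tested names, -8.57 (SE 0.85, adjusted p = 3.23e-05), or -7.17 without BO replicate 2, -9.49 without BO replicate 1, -7.73 with edgeR and -7.70 with DESeq2. The log2 fold changes of the other called names were -5.13 for 7SK, -4.52 for U1 (-3.78 without BO replicate 3), -4.02 for U3, -3.76 for U4 (-4.51 with edgeR and -4.49 with DESeq2) and -2.11 for U2. Without INPUT replicate 1 the last 3 were -3.28, -2.79 and -1.38, and U2 was then not called (adjusted p = 0.0582), nor was it without BO replicate 1 (-2.15, adjusted p = 0.0532) or BO replicate 3 (-1.98, adjusted p = 0.0568). U5 (-2.67, adjusted p = 0.123, or -1.22 without INPUT replicate 1 and -3.65 without INPUT replicate 3) and U6 (-0.13, adjusted p = 0.745) were not called.

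Set against the whole extract, 7 of 8 names were called lower in IP and 0 higher (all 8 were below 0 by the 3 tools), beside 3.47% and 2.88% of all tested names. 7SL had 1718746, 3410729 and 2949159 in TOTAL, and its normalized level in IP was 1.08% of their mean (log2 fold change -6.50, SE 0.85, adjusted p = 0.000253). 7SK had 485275, 803117 and 665770 in TOTAL, and its normalized level in IP was 1.75% of their mean (-5.82, SE 0.19, adjusted p = 1.00e-09). Both were far above every IP library. U1 (31235, 31378 and 29384 in TOTAL) was at -4.87, U3 (27347, 10276 and 10557) at -4.19, U4 (11971, 2533 and 3159) at -4.14, or -3.45 without TOTAL replicate 1, and U2 (62509, 23355 and 26958) at -3.22. U5 (5298, 300 and 394 in TOTAL) was called at -3.75 (SE 1.20, adjusted p = 0.0413). That call was lost without TOTAL replicate 1 (-2.44, adjusted p = 0.136) and without any 1 of the IP libraries (adjusted p = 0.142, 0.0754 and 0.0746), and it was -4.51 without TOTAL replicate 2 and -4.81 with edgeR (adjusted p = 0.0342). Without replicate 1 of every group U3 was at -3.41, U4 at -2.97, U2 at -2.23 and U5 at -2.003 (adjusted p = 0.00357), all called. U6 (755, 400 and 419 in TOTAL) was at -0.73 (adjusted p = 0.0408), under the fold threshold.

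The step from TOTAL to INPUT shows how much of each RNA sedimented in the pooled fractions, relative to the other repeat names. 7SK fell by 2.95 on the log2 scale (SE 0.19, adjusted p = 2.68e-06), to 12.7% of its TOTAL level, and was the 1 name of the 8 called, where 0.339% of all tested names were called lower and 0% higher (107 names were higher at an unadjusted p under 0.05, and edgeR and DESeq2 also called 0). 7SL went to 19.4% of its TOTAL level, with every INPUT library below every TOTAL library, but its log2 fold change of -2.31 (SE 0.85) had an adjusted p of 0.181 in the fit of all 4 groups, whose spread includes the scattered BO libraries. Same-numbered TOTAL and INPUT libraries deviated together (r = 0.629, 0.339 and 0.321). Numbers 2 and 3 came close across numbers too (r = 0.331 and 0.243), so mainly replicate 1 was set apart. The pairing of TOTAL and INPUT was thus read from these same data and is not given by the labels. In a fit of these 2 groups paired by replicate number, 7SL was called (-2.31, SE 0.15, adjusted p = 0.000187), as were 7SK (adjusted p = 3.15e-05) and U1 (-1.07, SE 0.26, adjusted p = 0.0364), beside 1.36% of all tested names. U3 at -0.84 (adjusted p = 0.0202) stayed under the fold threshold in the paired fit. In the fit of all 4 groups it ranged from -1.58 without INPUT replicate 1 to -0.34 without INPUT replicate 3, not called in either, and it was called at -1.12 (adjusted p = 0.00385) without replicate 1 of every group. U2 and U5 were at -0.42, U4 at -0.57 and U6 at 0.00 (-0.000648), none of them called.

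**Figure D4:**
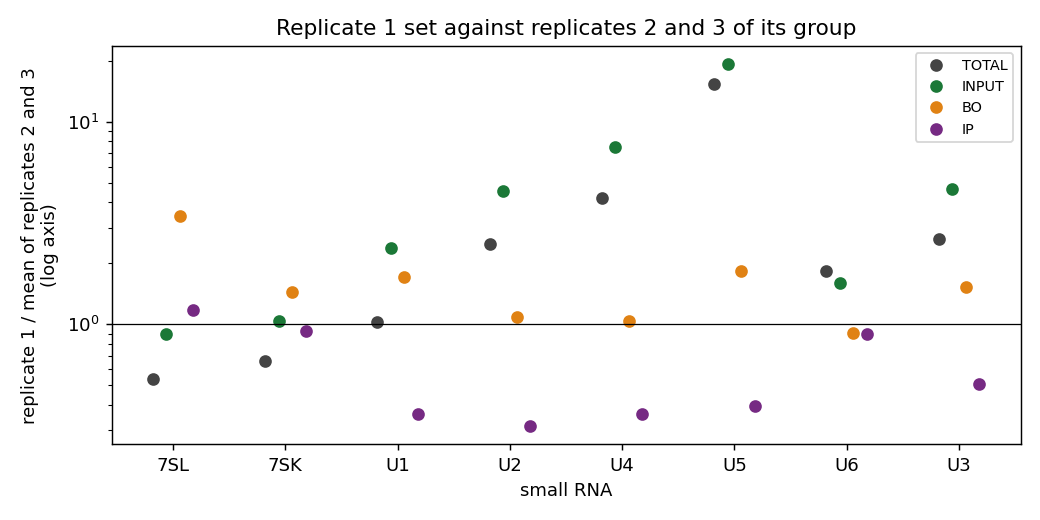
For each small RNA and group, points give the level in replicate 1 divided by the mean of replicates 2 and 3, on a log axis with a line at 1. U5 reaches 15.3 in TOTAL and 19.2 in INPUT, U4 4.21 and 7.54, U2 2.48 and 4.54 and U3 2.63 and 4.63, whereas in IP all of the U RNAs are below 1.

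How strongly replicate 1 departed differed between the RNAs. In TOTAL, the ratio of replicate 1 to the mean of the other two was 15.3 for U5 (116 nt), 4.21 for U4, 2.63 for U3 (215 nt), 2.48 for U2 (191 nt), 1.84 for U6 (107 nt), 1.03 for U1 (165 nt), 0.661 for 7SK (331 nt) and 0.540 for 7SL (300 nt). In INPUT it was 19.2, 7.54, 4.63, 4.54, 1.60, 2.39, 1.04 and 0.897 in that order. The Y RNA names HY1 and HY3, short RNAs bound by Ro60, stood at 10.3 and 11.2 in TOTAL and at 14.6 and 25.8 in INPUT. In IP replicate 1 was on the other side, at 0.396 for U5, 0.360 for U4, 0.315 for U2 and 0.510 for U3. Ribosomal RNA names took 1.96% of reads in TOTAL replicate 1 and 4.25% in INPUT replicate 1, the lowest share of each group, and the part of ribosomal RNA content in these values was not tested.

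Scaling bears on the middle of all these comparisons, since the 8 names themselves take most of the reads on repeat names in TOTAL. The values above rest on the authors' upper quartile, under which the median tested name stood at -0.12 for IP vs BO, at -0.06 for IP vs INPUT, at -0.05 for IP vs TOTAL, 0.03 in INPUT vs TOTAL and 0.03 in BO vs INPUT. With scaling to library totals these medians were 0.36, 0.47, 1.49, 1.03 and 0.08, and the calls over all names were 125 higher and 17 lower for IP vs BO (60 and 45 before), 126 and 18 for IP vs INPUT (38 and 34), 1014 and 17 for IP vs TOTAL (34 and 41), and 637 and 5 for INPUT vs TOTAL (0 and 4). Relative to the median name, 7SL was then at 4.52 in IP vs BO and -2.33 in INPUT vs TOTAL, and 7SK at 2.40 and -2.97, both called. U6 was at 0.81 in IP vs TOTAL and 1.001 in INPUT vs TOTAL by that scaling, or -0.68 and -0.03 relative to the median name. Scaling to totals without the 8 names and ribosomal RNA gave 72 higher and 31 lower for IP vs BO and 25 and 45 for BO vs INPUT (31 and 33 before), and median ratio scaling 50 and 28 for IP vs INPUT.

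Ratios between 2 RNAs within a library do not depend on how libraries are scaled. 8 ratios were set across the 5 comparisons, giving 40 exact two-sided permutation tests, for which 3 libraries against 3 allow no p below 0.1 (0.118 after Benjamini-Hochberg adjustment). The log2 ratio of 7SL to 7SK was 2.02 ± 0.17 (SD, n = 3) in TOTAL, 2.66 ± 0.13 in INPUT, 1.34 ± 0.20 in IP and -0.78 ± 2.28 in BO. IP did not overlap with any of the other groups (exact p = 0.1 each), so that 7SL was lower relative to 7SK in IP than in INPUT (a difference of -1.32) and higher relative to 7SK in INPUT than in TOTAL (0.64). In BO the ratio ranged from -3.40 in replicate 2 to 0.71 in replicate 1.

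Relative to U6, the most even of the 8 names, 7SL stood at a log2 ratio of 12.33 ± 1.03 in TOTAL, 10.02 ± 0.49 in INPUT, 6.57 ± 0.41 in IP and 1.58 ± 2.47 in BO, with all 4 groups apart. The U6 name covers 319 listed loci, the largest with 6.93% of their summed TOTAL mean. How many of its reads came from U6 snRNA was not tested, so it is a reference name here and not a measured snRNA level. The ratio of 7SK to U6 gave the same order, at 10.31 ± 0.87, 7.36 ± 0.36, 5.22 ± 0.31 and 2.35 ± 0.39. U1 to U2 went from -0.15 ± 0.75 in TOTAL and -0.80 ± 0.59 in INPUT to -1.80 ± 0.12 in IP and -3.21 ± 1.06 in BO, and IP lay between INPUT and BO without overlap with either (exact p = 0.1). U3 to U2 was -1.24 ± 0.09 in TOTAL, -1.67 ± 0.14 in INPUT, -2.21 ± 0.41 in IP and -3.58 ± 0.32 in BO, where IP and INPUT overlapped (exact p = 0.2). For U4 to U6, IP (-0.22 ± 0.82) and BO (-1.02 ± 0.26) overlapped, with an exact p of 0.3, and so did U5 to U6 in IP (-2.25 ± 0.70) and BO (-2.20 ± 0.69), with an exact p of 0.8.

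**Figure D5:**
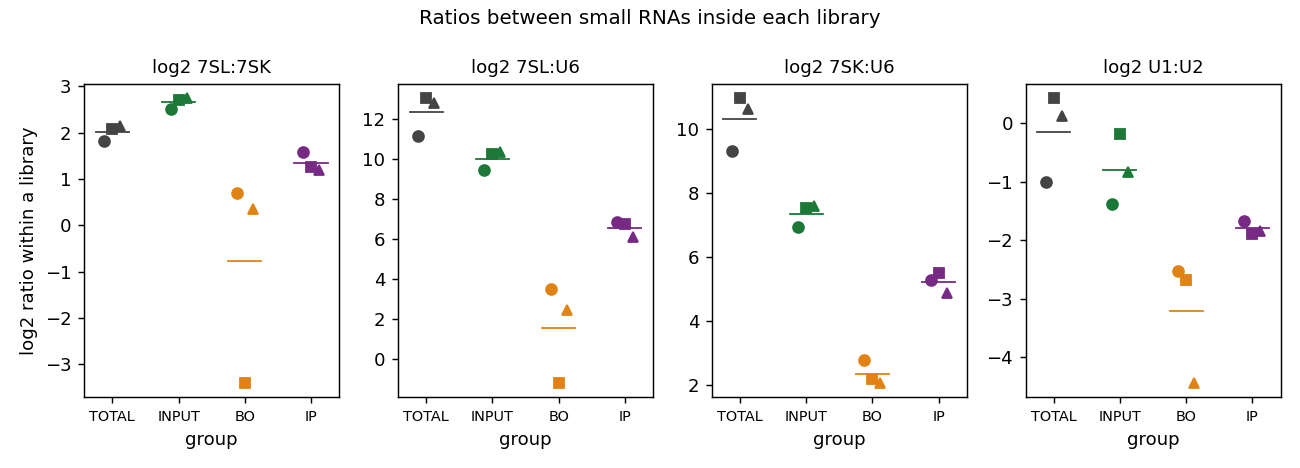
Points give the log2 ratio of 2 small RNAs within each library for 7SL to 7SK, 7SL to U6, 7SK to U6 and U1 to U2, by group, with shapes for the replicate number (circle 1, square 2, triangle 3) and a line at the group mean. In 7SL to U6 and 7SK to U6 the groups fall from TOTAL over INPUT and IP to BO without overlap, and BO replicate 2 is far below the rest in both panels with 7SL.

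The 7SL-derived SINEs did not follow 7SL. Of the 16 names of that family, all tested, 0 passed as higher in IP than in BO and 1 as lower (FAM, a free monomer element, -1.02, adjusted p = 0.00148), where edgeR and DESeq2 called 0 in both directions. At an unadjusted p under 0.05 limma had 15 names lower and 0 higher, with a median log2 fold change of -0.28 beside -0.12 for all tested names. Over all tested names 5.08% were called higher and 3.81% lower. Their share at the unadjusted level is not given here, so the 15 names are not read as a result about this family. Against INPUT the median was -0.44, beside -0.06 for all tested names, with 15 lower at an unadjusted limma p under 0.05. 0 were called by any of the 3 tools, beside 3.22% of all tested names higher and 2.88% lower. Between TOTAL and INPUT the median was 0.19, beside 0.03 for all tested names, with 0 called and 11 higher at that unadjusted level. There 0% of all tested names were called higher and 0.339% lower. The unadjusted counts of 15 and 11 are likewise not read as results about this family. In BO vs INPUT 1 of 16 was called higher (FAM, 1.12), beside 2.63% of all tested names, with a median of -0.19. B1_Mm, a B1 name of this family, had 10013 ± 277 normalized counts in IP (SD, n = 3), 11696 ± 768 in BO, 14360 ± 284 in INPUT and 14540 ± 710 in TOTAL. The log2 ratio of 7SL to B1_Mm was 7.48 ± 0.56 in TOTAL, 5.18 ± 0.11 in INPUT, 1.52 ± 0.32 in IP and -3.09 ± 2.52 in BO, again with 4 separate groups (exact p = 0.1 each). Reads of 7SL and B1 can align to each other's copies, and how the authors' assignment divided them was not tested.

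Other structured RNA names were followed for comparison. The list held 15 names, of which 11 were tested. 0 were called in either direction in IP vs BO, beside 5.08% of all tested names higher and 3.81% lower. At an unadjusted limma p under 0.05, 1 was higher and 1 lower, given without the share of all names at that level. In this comparison edgeR called 0 and DESeq2 2 lower. 2 were called lower in IP vs INPUT (U8 and U17, both small nucleolar RNAs), 6 in IP vs TOTAL (U8, U13, U17, HY1, HY3 and BC1_Mm), 1 in INPUT vs TOTAL (BC1_Mm) and 5 in BO vs INPUT (U8, U13, U17, HY1 and HY3), beside 2.88%, 3.47%, 0.339% and 2.8% of all tested names. None was called higher in these 4 comparisons by limma, edgeR or DESeq2, nor was any higher at an unadjusted limma p under 0.05. U8 and U13 passed the filter only through TOTAL (35.1 and 22.2) and INPUT (17.6 and 10.9). In IP they stood at 0.917 and 5.97, and in BO at 0.207 and 1.82. The filter thus favoured a lower call for both in IP and BO, and these calls are not read as a result. HY1 had the highest log2 fold change of the list in IP vs BO, with 55.9 ± 16.4 in IP and 8.05 ± 5.15 in BO (log2 fold change 2.82, SE 1.07, adjusted p = 0.0605). The LSU-rRNA_Hsa name had 69456 ± 35590 in IP and 828068 ± 1311236 in BO (69645, 72408 and 2342152), and was not called (-1.83, adjusted p = 0.277).

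Across the 12 libraries likeness was measured as Pearson's r of log2 values, a description over libraries that share their groups and depth. The name closest to 7SL was 7SK (r = 0.961), before tRNA-Ser-TCG (0.951) and MMERVK10D3_I-int (0.930), and those closest to 7SK were RMER15 (0.975), 7SL and LTR45 (0.944). U3 and U4 were closest to each other (0.985). U1 was closest to U3 (0.966), U2 to U4 (0.975) and U5 to U2 (0.944). U6 was closest to the simple repeats (CAAA)n (0.928) and (TTTG)n (0.923) and to RMER16-int (0.901), and its r with 7SL was 0.242.

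The authors' tables of single repeat loci, which give group means and no value per library, show where the counted reads of each name lay. They keep reads with several alignments in a row of their own, at a mean of 4855082 in TOTAL and 1594823 in IP. Of 166 loci of 7SK, 1 (7SK_356) held 99.8% of the summed TOTAL mean of 349287, and 1 locus likewise held 93.8% for U1 (U1_248, of 107 loci) and 98.3% for U3 (U3_73, of 18 loci). U2 was spread over U2_18, U2_655 and U2_21 with 826, 816 and 806, and U4 over U4_32 and U4_33 with 2471 and 1875. U5_23 held 63.4% of U5. The 319 loci of U6 summed to 248, the largest with 6.93% of it, and the 133 loci of 7SL to 403, so these loci hold few of the reads that the collapsed table gives to 7SL. Summed over loci, 7SK had a mean of 1422 in BO and 4566 in IP in the same table (log2 ratio 1.68), U3 145 and 146 (0.01), U4 176 and 174 (-0.02) and U1 185 and 96.7 (-0.93). U2 had 413 and 239 (-0.79), U5 59.8 and 31.9 (-0.88) and U6 178 and 97.4 (-0.86). The few locus reads of 7SL were lower in IP, 144 in BO and 59.9 in IP (-1.26), opposite in sign to the collapsed count, as were the sums of U1 and U4, whose collapsed values (0.72 and 0.19) were not called.

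Noncoding RNA genes of the gene tables were followed as ratios of the authors' group means, with no test. Rmrp, the RNA of RNase MRP, was at 306 in BO and 2356 in IP (log2 ratio 2.94), and Rpph1, the RNA of RNase P, at 359 and 880 (1.29), so 2 of the 4 noncoding genes with a mean of at least 10 exceeded 2-fold in the IP vs BO table, where 43.9% of all genes did. Rnu11 (18.3 and 9.74) and Rnu12 (26.5 and 12.8), RNAs of the minor spliceosome, did not. Of 7 small nucleolar and Cajal body RNA genes (Snora, Snord and Scarna symbols), 0 were past 2-fold higher in IP than in BO and 6 lower, beside 11.2% of all genes lower, with a median log2 ratio of -1.72. The filter of a mean of at least 10 left 22 such genes in the IP vs INPUT table. How many of the 7 passed it through BO alone was not counted, so their direction is not read as a result. Against TOTAL, all 6 noncoding genes of the list with a mean of at least 10 were more than 2-fold lower in IP, beside 26.2% of all genes, among them Rpph1 (134155 and 1151) and Rmrp (41961 and 3074). Terc (73.2 and 5.84) and Vaultrc5, a vault RNA (430 and 4.96), passed that filter only through TOTAL, so their lower direction was set by it. In IP vs INPUT all 6 noncoding genes were lower too, beside 14.6% of all genes. There Terc (44.3 in INPUT and 5.87 in IP) and Vaultrc5 (3102 and 4.99) passed the filter only through INPUT, which again set their direction.

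mRNAs for the protein partners of these RNAs were followed in the same way. 57 of 60 listed genes were in the tables with a mean of at least 10. In IP vs BO 51 of 57 were past 2-fold higher and 1 lower, beside 43.9% and 11.2% of all genes. All 6 SRP protein mRNAs were among them, such as Srp14 (180 in BO and 966 in IP), as were 13 of 14 for Sm and LSm proteins and 4 of 7 for the 7SK particle, with Larp7 at 363 and 3752. Against INPUT 15 of 57 were higher and 1 lower, beside 20.5% and 14.6% of all genes, including 4 of 6 SRP mRNAs and Larp7 (867 and 4921). Against TOTAL 10 were higher and 15 lower, beside 20.4% and 26.2%, and 11 of those 15 were among the 14 Sm and LSm mRNAs, for example Snrpd2 (520 and 130). Of 11 mRNAs for proteins of the tri-snRNP and of U4 and U6 assembly or recycling, 4 were past 2-fold higher and 0 lower, namely Prpf8 (7881 and 34591), Snrnp200 (5491 and 28630), Eftud2 (2023 and 7499) and Sart3 (932 and 2081). SRP mRNAs had 0 past 2-fold against TOTAL.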

How the data were processed

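Processed RNA-seq tables were analysed for the 12 libraries, with groups and replicate numbers from the sample labels. For repeats, the authors aligned reads to mm10 (STAR v2.6.0c per the submitters' processing notes), divided ambiguous alignments with Telescope, summed counts per repeat name and applied EBSeq's upper quartile scaling. The deposited signal is this normalized count. Rescaled by 1 step per library, 100% of values were whole reads within a tolerance of 0.1, which gave the depths. Gene and locus tables hold, as deposited signal, the authors' DESeq2 (v1.24.0) group means. Their columns of fold changes and p-values are the authors' comparisons and were not used. Their rows for unassigned reads (multimapping, ambiguous, without feature, unmapped), 21.6% to 37.1% of the summed group means, were left out, and the annotation used for counting is not given in the sources used here.

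log2(normalized count + 1) was fitted with limma 3.58.1 (R 4.3.3, trend) for names with a mean of at least 10, with 1 fit of 4 groups and Benjamini-Hochberg adjustment over 1180 names. Called means a log2 fold change beyond 1 or -1 and an adjusted p under 0.05, after the study's thresholds. Group means of genes were compared as log2 of (mean + 1), called past 2-fold. The fit was tested on simulated data. Same-numbered TOTAL and INPUT libraries deviated together (r = 0.629, 0.339 and 0.321), taken as pairing because each r was over 0.1. Differently numbered libraries of these groups came close for numbers 2 and 3 (r = 0.331 and 0.243). In the other group pairs at least 1 same-numbered r was under 0.1.

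The members and lists were chosen with earlier results of these data known. Named are all members, their 3 nearest names by r, their 3 loci highest in TOTAL, and listed pathway members. The fit was repeated with a pseudocount of 0.1 or 10, without the filter or with a minimum mean of 100, with other scalings, within the compared groups, with a replicate block, with edgeR 4.0.16 and DESeq2 1.42.0 on recovered reads, and libraries left out. Some reference sequences are not reported here.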

Additional observations from a re-analysis of the deposited data

How the results depend on the processing

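The 2 members higher in IP than in BO (7SL and 7SK) were called under every setting run, and 7SL, 7SK, U1, U3 and U4 were lower in IP than in INPUT and TOTAL, and in BO than in INPUT, under every setting run. Counts of called members moved by 1 in IP vs BO (2 to 3 higher without replicate 1 in all groups), IP vs INPUT (6 to 7 lower), IP vs TOTAL (7 to 6) and BO vs INPUT (6 to 5 or 7), through U2, U3 and U5. They moved by over 1.5 times in INPUT vs TOTAL alone, where 1 was lower: 2 with the library total (beside 1 higher, U6), 2 in a fit of the compared groups, 2 without replicate 1 in all groups, 2 with DESeq2, and 3 in the paired fit of TOTAL and INPUT. Further to the calls of U5 and U2 given above, U5 was called in IP vs INPUT and BO vs INPUT with edgeR (-4.60 and -4.07) and the library total (-2.79 and -2.62), in IP vs INPUT without INPUT replicate 3 (-4.31) and with totals without members and rRNA (-3.28), and in BO vs INPUT without replicate 1 in all groups (-1.52), and DESeq2 gave U5 no p in any comparison. Signs changed only for values uncalled in the report, of which 1 was called after the change (U6 in INPUT vs TOTAL). Scaling to the library total gave U6 0.81 in IP vs TOTAL and, in INPUT vs TOTAL, U2 0.59, U3 0.17, U4 0.43, U5 0.58 and U6 1.001. Without replicate 1 in all groups, U5 was 0.073 in IP vs BO and U6 0.066 in INPUT vs TOTAL and 0.14 in BO vs INPUT. Leaving out 1 library at a time, IP vs BO ranged from -0.027 to 1.20 for U1 and -0.19 to 0.67 for U4, INPUT vs TOTAL from -1.15 to 0.022 for U2, -1.54 to 0.12 for U4, -1.87 to 0.89 for U5 and -0.23 to 0.29 for U6, and BO vs INPUT from -0.26 to 0.10 for U6. The U5 to U6 log2 ratio ranged from -0.40 to 0.33 in IP vs BO and from -1.64 to 0.60 in INPUT vs TOTAL, and was 0.010 in IP vs BO with a pseudocount of 10. Outside rRNA names the summed share differed by -23.4 percentage points in IP vs INPUT and -25.3 in BO vs INPUT. The cause of these shifts was not tested.

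With a replicate block over all 4 groups, U5 was called in IP vs INPUT (-3.33, adjusted p = 0.0291) and no other member's call changed. Outside TOTAL and INPUT the numbers were not taken as pairing. INPUT and BO came nearest (r = 0.295, 0.0615 and 0.558). U5 had 23 to 78 reads in IP.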
